A study of Homo sapiens with 12 samples.

Results

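The hypoxia response and glycolysis genes form a set of 41 genes, chosen by name from the 27046 rows (genes) of the deposited count table. The set joins 18 genes of the hypoxia-inducible factor (HIF) pathway with 23 genes of glucose import, glycolysis and lactate export. They were picked by known function, with no threshold on a measured value, but with earlier results of these data known. All 41 passed the filter on low counts, more than 1 CPM (counts scaled to the size of the library) in at least 3 libraries, as did 12118 genes of the whole table. The study measured mRNA by sequencing in BT549 cells, a long-established line from a human triple-negative breast tumour, and asked how olaparib and loss of AP-1 act together. Olaparib inhibits poly(ADP-ribose) polymerases, and FOSL1 (Fra-1) and JUN (c-Jun) are subunits of the transcription factor AP-1. Cells received either a non-targeting siRNA pool or siRNA pools against FOSL1 and JUN together, and then either DMSO, the solvent, or olaparib for 48 h. The groups are called control DMSO, control olaparib, knockdown DMSO and knockdown olaparib, each with 3 libraries and 12 in all.

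All groups were 1 cell line, and each knockdown combined both targets, so FOSL1 and JUN cannot be told apart. The dose of olaparib is not given in the sources used here, and no group was labelled as cultured in low oxygen. No label says whether the 3 libraries of a group came from separate cultures, so p-values measure the spread between these libraries, which may be technical.

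HIF is a pair of proteins, an oxygen-regulated alpha subunit (the products of HIF1A or EPAS1) and the constant partner ARNT. In oxygen, prolyl hydroxylases of the EGLN family mark the alpha subunit, VHL recognises the mark and the protein is destroyed. In low oxygen the pair builds up and binds a short DNA core, ACGTG or GCGTG, near its target genes. Those targets include glucose transporters, most glycolytic enzymes and the lactate exporter SLC16A3, which together let a cell make ATP from glucose with little oxygen. Because HIF is controlled largely through protein stability, mRNA of HIF1A or EPAS1 is not a measure of HIF activity, and HIF protein was not measured here.

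Libraries held from 13763179 to 39715900 counts, and the 41 genes took between 2.17% and 2.94% of them. The siRNA targets were lower in every knockdown library: FOSL1 read 68.5 to 128 CPM with control siRNA and 19.4 to 30.2 CPM with the knockdown, and JUN read 147 to 178 CPM and 36.1 to 72.5 CPM. Receptor and lineage genes went with the triple-negative label, with ESR1 at most 0.0698 CPM, PGR at 0 in every library, CDH1 at most 1.49 CPM and VIM from 2460 to 3890 CPM. ERBB2 was present at 94.2 to 136 CPM. The summed level of 5 mesenchymal markers was 5380 to 5430 CPM in control olaparib against 3770 to 4340 CPM over the other groups. VIM made up most of that sum, at 3830 to 3890 CPM in control olaparib. VIM, ZEB1 and FN1 were each highest there, and CDH2 lay within the range of the other groups. SPARC went the other way, at 568 to 597 CPM there and 589 to 871 CPM elsewhere. The summed level of 6 epithelial markers was 18 to 20.3 CPM in control olaparib and 24 to 40.4 CPM elsewhere. KRT18 made up most of that sum in every library and was lowest in control olaparib, so the lower sum reflects mainly this gene. CDH1 was scarce and went the other way against control DMSO, at 0.544 to 0.938 CPM in control olaparib and 0.209 to 0.476 CPM in control DMSO. KRT8 lay within the range of the other groups. The part of these shifts in the results below was not tested. Summed markers of blood cells reached at most 2.86 CPM and those of endothelium at most 0.0594 CPM.

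The sequences just upstream of the genes are shown because many members moved together and because HIF reads a known core there. RefSeq promoter windows (build GRCh38.p14, 250 bases before the start) were at hand for 36 of the 41 genes, in 66 windows, and not for VEGFA, VHL, NDRG1, BNIP3L and SLC2A3. The core ACGTG or GCGTG stood on either strand in 29 of the 36 genes (80.6%), against 47.4% of 27305 genes with a window. Among genes with a single window the share was 69.6% of 23 members against 42.2% of all. The E-box CACGTG, which holds the core on both strands, stood in 22.2% of members and 7.73% of all genes. The AP-1 motif TGANTCA stood in 4 of the 36 (11.1%) against 8.06% of all. The genes with a window were not limited to the 12118 tested, and were not matched to the members for base composition. These shares therefore do not show that the core is particular to this set. The 6 windows printed belong to PFKFB4, which fell most with olaparib, BNIP3 with 6 cores, as many as any window of the set (1 of HK2 also held 6), ALDOC and ADM, whose olaparib effect differed between arms, PGK1, the later-step enzyme with the largest fall, and EPAS1, which rose. They are at chr3:48556804-48557053 for PFKFB4, chr10:131981924-131982173 for BNIP3 and chr17:28576896-28577145 for ALDOC, all on the minus strand. On the plus strand are chrX:78103998-78104247 for PGK1, chr2:46297157-46297406 for EPAS1 and chr11:10304823-10305072 for ADM. Each is written 5′ to 3′ along its gene, with the core, or its reverse complement CACGT or CACGC, in capitals.
PFKFB4: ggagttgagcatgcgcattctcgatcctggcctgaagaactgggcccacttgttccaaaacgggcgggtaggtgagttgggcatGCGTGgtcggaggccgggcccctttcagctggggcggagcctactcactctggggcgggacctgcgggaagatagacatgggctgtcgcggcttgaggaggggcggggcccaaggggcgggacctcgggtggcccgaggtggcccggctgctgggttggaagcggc
BNIP3: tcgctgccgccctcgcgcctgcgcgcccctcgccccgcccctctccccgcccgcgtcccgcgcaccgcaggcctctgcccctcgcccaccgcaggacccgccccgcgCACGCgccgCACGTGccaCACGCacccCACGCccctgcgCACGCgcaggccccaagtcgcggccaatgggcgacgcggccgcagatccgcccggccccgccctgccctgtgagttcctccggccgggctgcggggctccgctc
ALDOC: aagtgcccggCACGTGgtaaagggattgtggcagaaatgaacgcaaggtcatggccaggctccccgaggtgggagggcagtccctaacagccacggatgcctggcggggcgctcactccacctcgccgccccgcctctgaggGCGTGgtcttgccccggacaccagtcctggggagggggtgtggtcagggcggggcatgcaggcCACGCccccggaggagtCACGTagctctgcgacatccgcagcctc
PGK1: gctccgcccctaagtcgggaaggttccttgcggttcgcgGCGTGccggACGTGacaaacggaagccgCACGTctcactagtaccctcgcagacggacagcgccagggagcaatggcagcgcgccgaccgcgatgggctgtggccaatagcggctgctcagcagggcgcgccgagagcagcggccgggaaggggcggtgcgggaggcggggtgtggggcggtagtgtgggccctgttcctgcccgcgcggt
EPAS1: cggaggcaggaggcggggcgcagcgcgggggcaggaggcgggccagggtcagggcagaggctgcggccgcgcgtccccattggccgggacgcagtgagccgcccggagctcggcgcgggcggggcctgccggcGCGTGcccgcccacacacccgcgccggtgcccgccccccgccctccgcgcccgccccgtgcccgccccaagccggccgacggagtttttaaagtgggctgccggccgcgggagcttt
ADM: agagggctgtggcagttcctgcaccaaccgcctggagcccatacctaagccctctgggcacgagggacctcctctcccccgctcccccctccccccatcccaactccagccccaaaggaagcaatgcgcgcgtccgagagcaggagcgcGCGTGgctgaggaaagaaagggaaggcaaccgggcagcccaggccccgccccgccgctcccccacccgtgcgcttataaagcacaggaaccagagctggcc

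BNIP3 held 6 core matches in its window and ALDOC 5, each with an E-box counted on both strands. PGK1 held 3, and PFKFB4, EPAS1 and ADM held 1 each. By response to olaparib, the core stood in 14 of 19 genes with a window that fell in both arms (73.7%) and in 15 of the 17 others (88.2%). A match is a string of letters and not a bound site.

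Per length, the later glycolytic enzymes were the most abundant of the set. Levels between genes are given as RPKM, counts scaled by the deposited gene length and by library size. In control DMSO, GAPDH stood at 3190 ± 192 RPKM (SD, n = 3), followed by ENO1 at 1766 ± 107, PKM at 1074 ± 74.8, ALDOA at 727.7 ± 42.5 and PGK1 at 633.9 ± 31.2. Each of these steps down was larger than the spread of the libraries. TPI1 at 511.4 ± 37.6 RPKM and DDIT4 at 461.3 ± 15.4 lay within their summed SDs of each other, as did LDHB at 391.5 ± 15.6 and LDHA at 367.2 ± 9.47. DDIT4, an inhibitor of the growth kinase mTORC1, was the most abundant HIF pathway gene in the set. At the other end were EGLN3 at 0.615 ± 0.116 RPKM and SLC2A3 at 0.0693 ± 0.0220. GAPDH, ENO1 and PKM together made up 6030 ± 372 of the 9444 ± 543 RPKM summed over the 23 glycolytic genes in control DMSO. That sum was 8684 ± 207 RPKM in control olaparib, 8699 ± 299 in knockdown DMSO and 7060 ± 85.9 in knockdown olaparib. The sums ran from 8829 to 9858 in control DMSO, 8461 to 8869 in control olaparib and 8366 to 8942 in knockdown DMSO. Each of these groups overlapped the others, while every knockdown olaparib library, at 6981 to 7151, was below all of them. GAPDH, TPI1, PGK1, PGAM1, ENO1, LDHA, LDHB and BNIP3 have processed pseudogenes, and how the authors counted shared or antisense reads is not given in the sources used here, so those levels are uncertain.

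**Figure D1:**
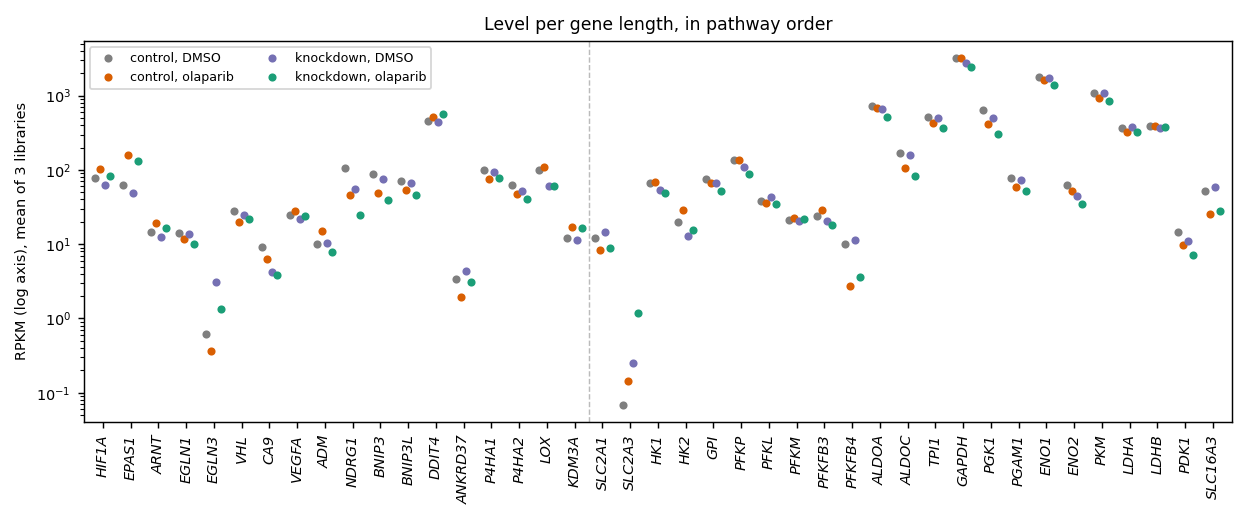
Mean RPKM (log axis, 3 libraries a group) of the 41 genes in pathway order, HIF pathway genes left of the dashed line and glycolytic genes right of it, with 1 colour for each group. GAPDH is the highest at 3190 RPKM in control DMSO, SLC2A3 the lowest at 0.0693, and PFKFB4, NDRG1 and EPAS1 show wide gaps between DMSO and olaparib.

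With olaparib, mRNA of the HIF subunits rose while more of the downstream genes fell than rose. In control siRNA cells 33 of the 41 genes changed (46.8% of all tested genes changed): 10 rose (23.6% of all) and 23 fell (23.2% of all), by edgeR's quasi-likelihood test over 12118 genes with a Benjamini-Hochberg adjusted p below 0.05. In knockdown cells 37 changed (48% of all), of which 8 rose (24.1% of all) and 29 fell (23.9% of all). The 3 libraries of each group did not overlap for 11 genes higher with olaparib (30% of all) and 23 lower (30% of all) in control cells, and for 8 higher (25.3% of all) and 29 lower (25.8% of all) in knockdown cells. The median log2 change of the set was -0.18 in control cells and -0.30 in knockdown cells, against -0.0076 and -0.0088 over all genes. The 18 HIF pathway genes divided into 8 that rose and 10 that fell in control cells, while of the 23 glycolytic genes 2 rose and 13 fell. In knockdown cells the HIF pathway genes gave 6 and 10, and the glycolytic genes 2 and 19. These olaparib comparisons use separate libraries. In bulk RNA, fewer cells of a kind and less RNA per cell cannot be told apart. Scaled by library size alone, without TMM factors, genes that rose were 31% of those called in control cells in place of 50.5%, and 39.1% in knockdown cells in place of 50.1%. The median of all genes then moved to -0.11 in control cells, and the members' counts became 7 and 25 in control cells and 7 and 29 in knockdown cells.

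**Figure D2:**
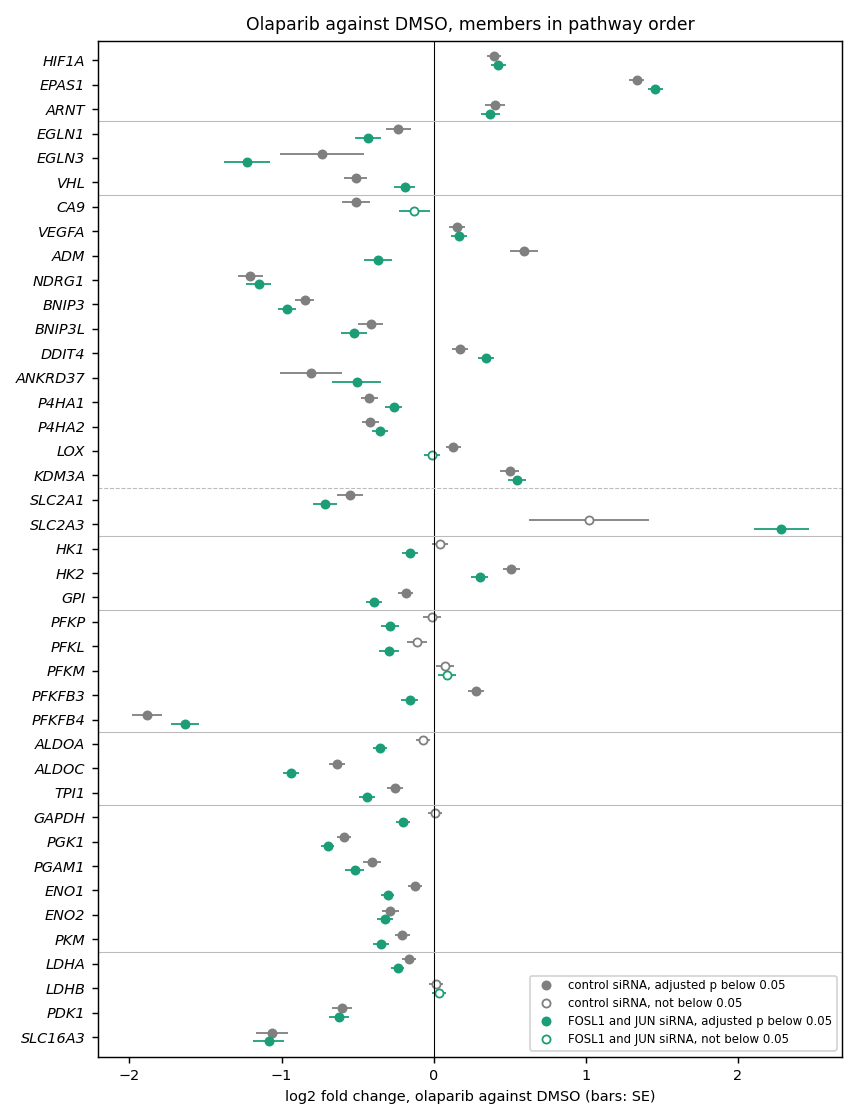
The log2 fold change with olaparib against DMSO (bars: SE) of each gene in pathway order, in control siRNA cells (grey) and FOSL1 and JUN knockdown cells (green), filled where the adjusted p was below 0.05. EPAS1 lies furthest right among the HIF pathway genes (1.33 and 1.46), PFKFB4 furthest left of all (-1.88 and -1.64), and genes from GAPDH to PKM lie left of or near 0.

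All 3 HIF subunit genes rose with olaparib in both arms. EPAS1, which encodes the HIF-2 alpha subunit, read 334, 318 and 311 CPM in control DMSO, 839, 803 and 787 in control olaparib, 247, 263 and 242 in knockdown DMSO and 711, 692 and 665 in knockdown olaparib. Every olaparib library was more than 2 times every DMSO library of its arm, a log2 change of 1.33 (SE 0.048, adjusted p = 1.4e-13 by edgeR) in control cells and 1.46 (SE 0.048, adjusted p = 1.14e-13 by edgeR) in knockdown cells. HIF1A, the broadly expressed alpha subunit, measured 354, 341 and 334 CPM in control DMSO, 451, 434 and 469.8 in control olaparib, 277, 266 and 272 in knockdown DMSO and 352, 360.3 and 382 in knockdown olaparib. The olaparib libraries were higher without overlap in both arms, by a smaller step than EPAS1: 0.40 (SE 0.046, adjusted p = 1.32e-06 by edgeR) and 0.43 (SE 0.046, adjusted p = 5.73e-07 by edgeR). ARNT, the shared partner subunit, stood at 72.7, 73.5 and 72.2 CPM in control DMSO, 102, 90.2 and 96.2 in control olaparib, 65.5, 66.5 and 56.2 in knockdown DMSO and 80.1, 79.9 and 83.1 in knockdown olaparib. Its groups also stood apart, by 0.40 (SE 0.065, adjusted p = 5.27e-05 by edgeR) in control and 0.37 (SE 0.065, adjusted p = 0.000118 by edgeR) in knockdown cells. Per length, EPAS1 mRNA went from 79.6% ± 0.647 of HIF1A mRNA in control DMSO to 153% ± 8.94 in control olaparib (SD, n = 3). The same ratio was 78.7% ± 4.91 and 161% ± 11.9 in the knockdown groups, so EPAS1 passed HIF1A with olaparib in each of the 6 olaparib libraries.

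The genes that mark and destroy HIF alpha fell with olaparib in both arms. EGLN3, a prolyl hydroxylase that is itself a HIF target, read 1.60, 1.40 and 2.02 CPM in control DMSO, 1.29, 0.603 and 1.09 in control olaparib, 8.03, 7.39 and 9.55 in knockdown DMSO and 3.58, 3.23 and 4.25 in knockdown olaparib. It was scarce with control siRNA, at 9 to 34 counts a library. Olaparib lowered it, with log2 changes of -0.73 (SE 0.28, adjusted p = 0.0353 by edgeR) in control cells and -1.23 (SE 0.15, adjusted p = 2.85e-06 by edgeR) in knockdown cells. EGLN1, the main hydroxylase of HIF alpha, changed by -0.23 (SE 0.084, adjusted p = 0.0314 by edgeR) and -0.43 (SE 0.083, adjusted p = 0.000473 by edgeR). VHL, the recognition subunit of the ubiquitin ligase, changed by -0.51 (SE 0.073, adjusted p = 1.66e-05 by edgeR) and -0.19 (SE 0.072, adjusted p = 0.0355 by edgeR). In control cells the EGLN3 call was lost without control DMSO library 1 or 3 or control olaparib library 2 or 3 (edgeR adjusted p from 0.0581 to 0.159, log2 -0.51 to -0.81). The EGLN1 call there was lost without control DMSO library 1 or 2 or any 1 of the control olaparib libraries (adjusted p from 0.0544 to 0.118, log2 -0.20 to -0.25). The VHL call in knockdown cells was lost without control olaparib library 1 or 2, knockdown DMSO library 1 or 3, or knockdown olaparib library 2 or 3 (adjusted p from 0.0505 to 0.120, log2 -0.16 to -0.21).

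Of the 12 HIF targets outside glycolysis, 7 fell and 5 rose in control cells, and 7 fell and 3 rose in knockdown cells. Over all genes 23.2% fell and 23.6% rose in control cells, and 23.9% fell and 24.1% rose in knockdown cells. The 3 targets that rose in knockdown cells (25%) were near that share. NDRG1, a stress gene widely used as a hypoxia marker, measured 401, 348 and 361 CPM in control DMSO, 161, 166 and 154 in control olaparib, 188, 200.2 and 183 in knockdown DMSO and 93.7, 91.1 and 71.7 in knockdown olaparib. The olaparib libraries lay far below the DMSO libraries of both arms without overlap, with log2 changes of -1.21 (SE 0.082, adjusted p = 1.88e-08 by edgeR) and -1.15 (SE 0.084, adjusted p = 4.56e-08 by edgeR). BNIP3, a receptor that tags mitochondria for removal, stood at 154, 142 and 137 CPM in control DMSO, 75.8, 82.8 and 81.9 in control olaparib, 125, 118 and 132 in knockdown DMSO and 66.4, 63.8 and 61.7 in knockdown olaparib. The DMSO and olaparib libraries did not overlap in either arm, with changes of -0.85 (SE 0.06, adjusted p = 1.72e-09 by edgeR) and -0.97 (SE 0.06, adjusted p = 4.92e-10 by edgeR). Its relative BNIP3L fell less, with log2 changes of -0.41 (SE 0.084, adjusted p = 0.00103 by edgeR) and -0.52 (SE 0.084, adjusted p = 0.000141 by edgeR). ANKRD37, a small ankyrin-repeat gene induced by HIF, read 3.00, 3.67 and 2.85 CPM in control DMSO, 2.38, 1.74 and 1.45 in control olaparib, 4.75, 3.47 and 4.22 in knockdown DMSO and 3.03, 2.78 and 2.97 in knockdown olaparib. All its olaparib libraries were below the DMSO libraries of their arm, at -0.81 (SE 0.20, adjusted p = 0.00291 by edgeR) and -0.51 (SE 0.16, adjusted p = 0.0154 by edgeR); in knockdown cells the call was lost without knockdown DMSO library 1 (log2 -0.43, adjusted p = 0.0536) or knockdown olaparib library 2 (log2 -0.46, adjusted p = 0.084). The collagen prolyl hydroxylase subunits fell together, P4HA1 with log2 changes of -0.42 (SE 0.055, adjusted p = 5.22e-06 by edgeR) and -0.26 (SE 0.055, adjusted p = 0.000654 by edgeR). For P4HA2 the changes were -0.42 (SE 0.054, adjusted p = 5.27e-06 by edgeR) and -0.35 (SE 0.054, adjusted p = 3.45e-05 by edgeR).

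**Figure D3:**
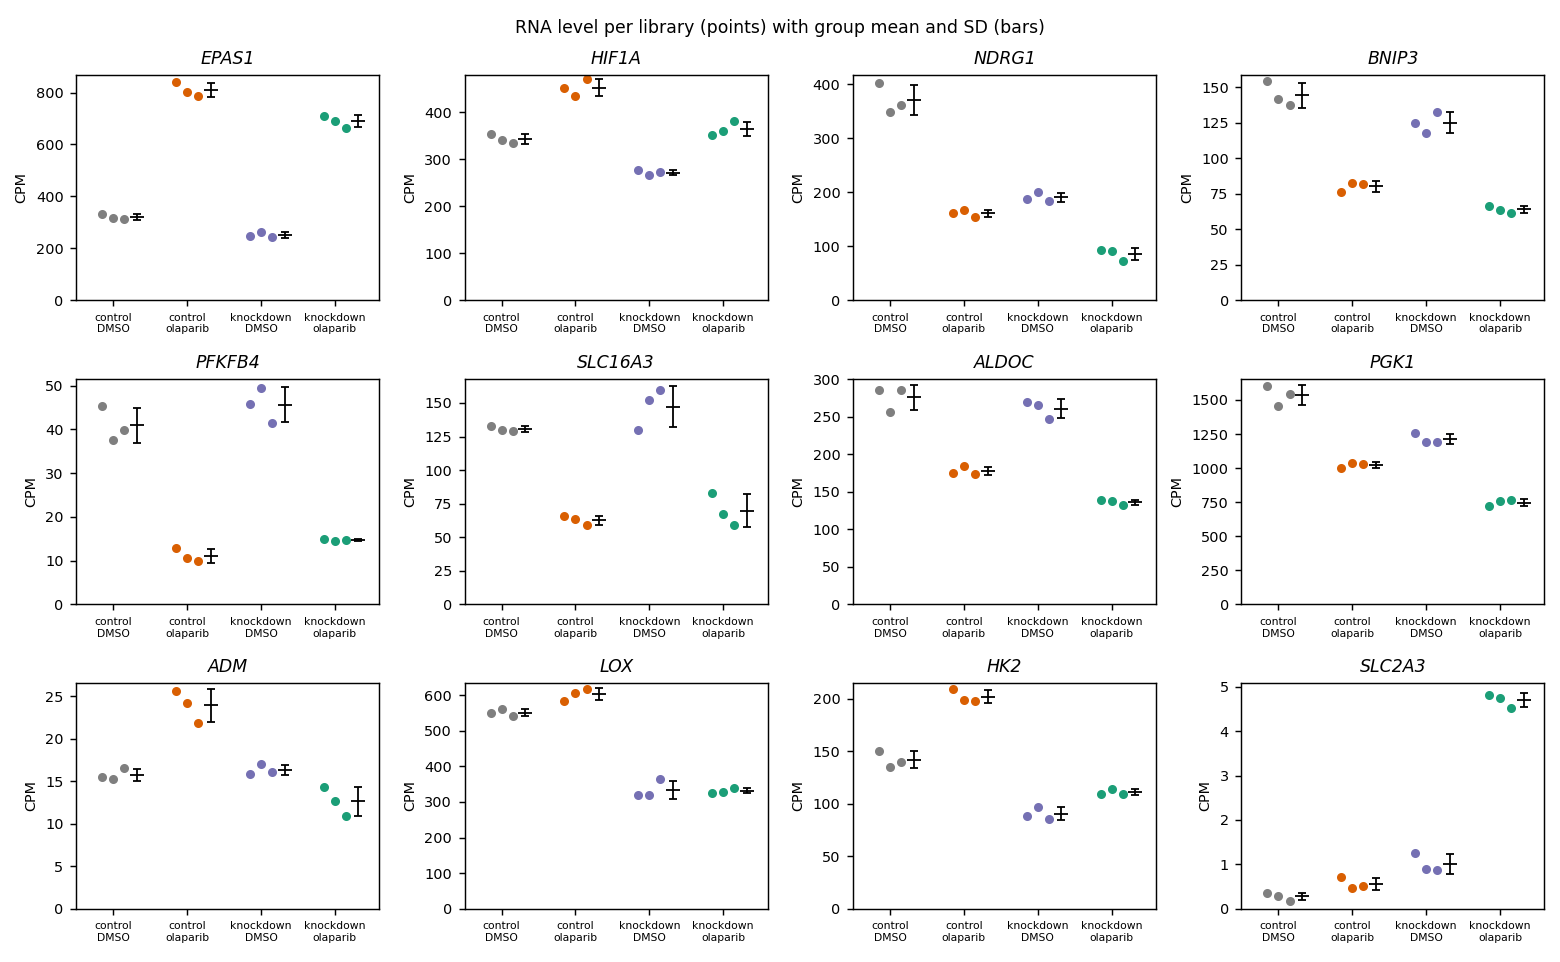
CPM of 12 genes in each library (points) with the group mean and SD (bars, n = 3), 1 panel a gene, all y axes starting at 0. EPAS1 and HIF1A are higher with olaparib in both arms, NDRG1, BNIP3, PFKFB4, SLC16A3, ALDOC and PGK1 are lower, and SLC2A3 is above 4 CPM in knockdown olaparib alone.

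Other HIF targets rose in both arms, and 3 were called in 1 arm alone or in opposite directions, of which only ADM had a called difference between arms (given with the interaction). KDM3A, a histone demethylase, rose by 0.50 (SE 0.062, adjusted p = 2.67e-06 by edgeR) and 0.55 (SE 0.061, adjusted p = 7.3e-07 by edgeR). DDIT4 rose by 0.17 (SE 0.051, adjusted p = 0.00853 by edgeR) and 0.34 (SE 0.051, adjusted p = 1.97e-05 by edgeR), and VEGFA, the angiogenic factor, by 0.15 (SE 0.05, adjusted p = 0.0174 by edgeR) and 0.17 (SE 0.05, adjusted p = 0.0103 by edgeR). ADM, which encodes the vasodilator peptide adrenomedullin, measured 15.5, 15.3 and 16.6 CPM in control DMSO, 25.6, 24.2 and 21.9 in control olaparib, 15.8, 16.98 and 16.1 in knockdown DMSO and 14.3, 12.7 and 10.8 in knockdown olaparib. Olaparib libraries lay above DMSO libraries in control cells and below them in knockdown cells, 0.59 (SE 0.093, adjusted p = 4.05e-05 by edgeR) and -0.37 (SE 0.094, adjusted p = 0.00355 by edgeR). LOX, a collagen crosslinking enzyme, stood at 550.3, 563 and 542 CPM in control DMSO, 585, 606 and 618 in control olaparib, 319, 319 and 363 in knockdown DMSO and 327, 328 and 339.6 in knockdown olaparib. The control olaparib libraries were slightly above control DMSO (0.13 (SE 0.05, adjusted p = 0.042 by edgeR)), while the knockdown groups overlapped (-0.011 (SE 0.05, adjusted p = 0.874 by edgeR)). CA9, the carbonic anhydrase that buffers acid at the cell surface, read 15.1, 13.2 and 14.4 CPM in control DMSO, 9.77, 9.64 and 10.4 in control olaparib, 6.07, 6.61 and 6.90 in knockdown DMSO and 6.11, 6.11 and 5.80 in knockdown olaparib. It fell in control cells, with a log2 change of -0.51 (SE 0.092, adjusted p = 0.000167 by edgeR), and its knockdown groups overlapped, at -0.13 (SE 0.10, adjusted p = 0.319 by edgeR). The difference between arms was not called for CA9, at 0.38 (SE 0.14, adjusted p = 0.105 by edgeR), or for LOX, at -0.14 (SE 0.071, adjusted p = 0.255 by edgeR). Some small rises depended on scaling or on 1 library. With library size alone, VEGFA read 0.05 (adjusted p = 0.385), DDIT4 0.07 (adjusted p = 0.219) and LOX 0.03 (adjusted p = 0.679) in control cells. VEGFA there also lost its call without control DMSO library 1 or 3 (0.14 each, adjusted p = 0.0567 and 0.0614), and LOX without any 1 of 6 libraries (the 3 of control DMSO, control olaparib 2 and 3, and knockdown olaparib 2; 0.11 to 0.14, adjusted p from 0.0541 to 0.140). In knockdown cells VEGFA was 0.11 with library size alone (adjusted p = 0.0648).

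Along glycolysis, the uptake and hexokinase steps moved in mixed directions. SLC2A1, the main glucose transporter of most cells, measured 49.7, 39.4 and 43.99 CPM in control DMSO, 30.4, 31.8 and 28.8 in control olaparib, 50.7, 57.5 and 53.8 in knockdown DMSO and 35.4, 33.2 and 30.1 in knockdown olaparib. The olaparib libraries were lower in both arms, with log2 changes of -0.55 (SE 0.084, adjusted p = 3.34e-05 by edgeR) and -0.71 (SE 0.081, adjusted p = 9.23e-07 by edgeR). SLC2A3, a high-affinity glucose transporter, stood at 0.348, 0.292 and 0.178 CPM in control DMSO, 0.707, 0.469 and 0.498 in control olaparib, 1.26, 0.881 and 0.859 in knockdown DMSO and 4.82, 4.76 and 4.52 in knockdown olaparib. These rest on few counts, 3 to 5 a library in control DMSO, 7 to 11 in control olaparib, 18 to 25 in knockdown DMSO and 67 to 190 in knockdown olaparib, and the gene passed the filter through knockdown olaparib alone. With olaparib it read 1.02 (SE 0.40, adjusted p = 0.0539 by edgeR) in control cells, which was not called. In knockdown cells it was 2.29 higher on the log2 scale, given as a description because the filter chose the gene by that group; the gene stays in the counts of genes that rose. Its near copy SLC2A14 shares sequence with it, so the source of its reads is uncertain. HK2, the inducible hexokinase that traps glucose in the cell, read 151, 135 and 140.2 CPM in control DMSO, 209, 199 and 198 in control olaparib, 88.4, 97.2 and 85.3 in knockdown DMSO and 109.7, 114 and 109.7 in knockdown olaparib. It rose in both arms, 0.51 (SE 0.056, adjusted p = 6.25e-07 by edgeR) and 0.30 (SE 0.057, adjusted p = 0.00026 by edgeR). The constitutive HK1 read 0.04 (SE 0.052, adjusted p = 0.555 by edgeR) in control cells and fell in knockdown cells, with a log2 change of -0.15 (SE 0.053, adjusted p = 0.0223 by edgeR), a call lost without knockdown DMSO library 1 or 2 or knockdown olaparib library 2 or 3 (log2 -0.13 to -0.15, adjusted p from 0.0545 to 0.0751). Glucose phosphate isomerase, GPI, fell in both, with log2 changes of -0.18 (SE 0.051, adjusted p = 0.0062 by edgeR) and -0.39 (SE 0.051, adjusted p = 5e-06 by edgeR). Per length, HK2 mRNA was 29.6% ± 0.700 of HK1 in control DMSO and 41% ± 1.59 in control olaparib, and 23.5% ± 1.18 and 32.3% ± 1.5 in the knockdown groups.

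At the phosphofructokinase step the largest fall of the set was in PFKFB4. PFKFB3 and PFKFB4 make and break the sugar bisphosphate that activates phosphofructokinase, and PFKFB4 measured 45.3, 37.6 and 39.9 CPM in control DMSO, 12.9, 10.6 and 9.91 in control olaparib, 45.7, 49.5 and 41.6 in knockdown DMSO and 14.9, 14.5 and 14.6 in knockdown olaparib. Olaparib left it at 27.1% of the DMSO level in control and 32.2% in knockdown cells with no overlap, log2 changes of -1.88 (SE 0.10, adjusted p = 2.98e-11 by edgeR) and -1.64 (SE 0.093, adjusted p = 1.35e-10 by edgeR). PFKFB3 had values of 115 to 123 CPM in control DMSO, 140.1 to 149.6 in control olaparib, 97.8 to 109.8 in knockdown DMSO and 88.8 to 93.9 in knockdown olaparib. It rose in control cells by 0.28 (SE 0.054, adjusted p = 0.00035 by edgeR) and fell in knockdown cells, with a log2 change of -0.16 (SE 0.054, adjusted p = 0.0215 by edgeR). That fall lost its call without knockdown DMSO library 2 or knockdown olaparib library 2 or 3 (log2 -0.11 to -0.17, adjusted p from 0.0501 to 0.126) and in a fit of those 2 groups alone (-0.16, adjusted p = 0.0691). PFKFB4 mRNA was 42.8% ± 3.96 of PFKFB3 per length in control DMSO and 9.59% ± 1.02 in control olaparib, 55.3% ± 3.32 in knockdown DMSO and 19.9% ± 0.570 in knockdown olaparib. Of the phosphofructokinases themselves, PFKP read -0.011 (SE 0.06, adjusted p = 0.892 by edgeR) in control cells and fell, with a log2 change of -0.29 (SE 0.06, adjusted p = 0.000718 by edgeR) in knockdown cells. PFKL followed the same order, -0.11 (SE 0.064, adjusted p = 0.165 by edgeR) and -0.29 (SE 0.063, adjusted p = 0.000819 by edgeR), and was called in control cells with library size alone (-0.21, adjusted p = 0.0104) and in a fit of those 2 groups (-0.11, adjusted p = 0.046). PFKM was not called in either arm, at 0.075 (SE 0.058, adjusted p = 0.301 by edgeR) and 0.088 (SE 0.057, adjusted p = 0.22 by edgeR).

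Aldolase isoforms differed in size of change. ALDOC, the minor isoform here, stood at 286, 256 and 285 CPM in control DMSO, 174, 184 and 174 in control olaparib, 269.8, 266 and 246 in knockdown DMSO and 138, 137 and 132 in knockdown olaparib. Its olaparib libraries were lower without overlap in both arms, -0.63 (SE 0.053, adjusted p = 1.7e-08 by edgeR) and -0.94 (SE 0.053, adjusted p = 1.35e-10 by edgeR). The abundant ALDOA read 2188 to 2439 CPM in control DMSO and 2181 to 2306 in control olaparib, which overlapped (-0.072 (SE 0.046, adjusted p = 0.21 by edgeR)). In knockdown cells it went from 2114 to 2171 CPM down to 1600 to 1705 CPM, -0.35 (SE 0.046, adjusted p = 4.57e-06 by edgeR). ALDOC was 22.9% ± 0.142 of ALDOA per length in control DMSO and 15.5% ± 0.0886 in control olaparib, with 23.8% ± 1.11 and 15.9% ± 0.196 in the knockdown groups. Triose phosphate isomerase, TPI1, fell, with log2 changes of -0.25 (SE 0.051, adjusted p = 0.000487 by edgeR) and -0.44 (SE 0.051, adjusted p = 1.29e-06 by edgeR). The ALDOA value in control cells was called with library size alone (-0.17, adjusted p = 0.00236) and without control DMSO library 2 (-0.12, adjusted p = 0.0355).

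From GAPDH to PKM, 5 of 6 genes fell in control cells (23.2% of all genes) and all 6 in knockdown cells (23.9% of all). GAPDH, the oxidation step often used as a reference gene, read 6331, 5631 and 6145 CPM in control DMSO, 6155, 6185 and 5884 in control olaparib, 5395, 5339 and 4915 in knockdown DMSO and 4548, 4624 and 4441 in knockdown olaparib. Control DMSO and control olaparib overlapped (0.0093 (SE 0.048, adjusted p = 0.887 by edgeR)), and knockdown olaparib lay below knockdown DMSO (-0.20 (SE 0.048, adjusted p = 0.00191 by edgeR)). PGK1, the first ATP-yielding step, measured 1606, 1456 and 1546 CPM in control DMSO, 998, 1036 and 1032 in control olaparib, 1256, 1188 and 1194 in knockdown DMSO and 722, 758 and 763 in knockdown olaparib. It had the largest fall of the 6, -0.59 (SE 0.045, adjusted p = 4.54e-09 by edgeR) and -0.70 (SE 0.045, adjusted p = 6.57e-10 by edgeR), with no overlap in either arm. PGAM1 followed with -0.41 (SE 0.06, adjusted p = 2.19e-05 by edgeR) and -0.52 (SE 0.06, adjusted p = 1.1e-06 by edgeR). The enolases fell, with log2 changes of -0.12 (SE 0.044, adjusted p = 0.0302 by edgeR) and -0.30 (SE 0.044, adjusted p = 1.9e-05 by edgeR) for ENO1. ENO2, the minor form, fell, with log2 changes of -0.28 (SE 0.055, adjusted p = 0.000331 by edgeR) and -0.32 (SE 0.056, adjusted p = 0.000118 by edgeR). PKM, pyruvate kinase, stood at 3816, 3377 and 3823 CPM in control DMSO, 3236, 3249 and 3057 in control olaparib, 3842, 3807 and 3517 in knockdown DMSO and 2937, 2953 and 2892 in knockdown olaparib. Olaparib libraries were lower in both arms, at -0.21 (SE 0.05, adjusted p = 0.0022 by edgeR) and -0.35 (SE 0.05, adjusted p = 1.53e-05 by edgeR). In control cells the ENO1 groups overlapped in CPM, and its call was lost without a filter on low counts (-0.11, adjusted p = 0.0529) or without control DMSO library 1 or 3 or control olaparib library 1 or 3 (-0.08 to -0.12, adjusted p from 0.0773 to 0.168).

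At the exit of the pathway the lactate exporter fell most. SLC16A3, which exports lactate, read 133, 129.8 and 129 CPM in control DMSO, 65.4, 63.4 and 58.9 in control olaparib, 130.1, 152 and 159.8 in knockdown DMSO and 82.9, 67.4 and 58.9 in knockdown olaparib. Olaparib left it at 47.8% of the DMSO level in control and 47.2% in knockdown cells with no overlap, -1.06 (SE 0.10, adjusted p = 2.68e-06 by edgeR) and -1.08 (SE 0.10, adjusted p = 1.79e-06 by edgeR). PDK1, which holds pyruvate back from mitochondria by inhibiting pyruvate dehydrogenase, measured 83.2, 86.8 and 84.8 CPM in control DMSO, 55.9, 56.3 and 55.8 in control olaparib, 68.8, 58.2 and 65.3 in knockdown DMSO and 40.1, 40.4 and 44.4 in knockdown olaparib. Its DMSO and olaparib libraries were far apart in both arms, at -0.60 (SE 0.064, adjusted p = 3.73e-07 by edgeR) and -0.62 (SE 0.064, adjusted p = 2.73e-07 by edgeR). LDHA, which makes lactate from pyruvate, stood at 963, 915 and 935 CPM in control DMSO, 813, 856 and 847 in control olaparib, 1000.0, 929.7 and 969.8 in knockdown DMSO and 781, 825 and 854 in knockdown olaparib. It fell, with log2 changes of -0.16 (SE 0.045, adjusted p = 0.00668 by edgeR) and -0.24 (SE 0.045, adjusted p = 0.000276 by edgeR), with no overlap in either arm. LDHB, the sister subunit, was not called, at 0.016 (SE 0.045, adjusted p = 0.792 by edgeR) and 0.035 (SE 0.045, adjusted p = 0.558 by edgeR). Per length LDHA was 93.8% ± 1.44 of LDHB in control DMSO and 82.9% ± 1.71 in control olaparib, then 102% ± 3.02 and 84.7% ± 2.44 with the knockdown. The LDHA call in control cells was lost without control olaparib library 1 (-0.13, adjusted p = 0.0526).

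The knockdown of FOSL1 and JUN lowered more of these genes than it raised. In DMSO 22 of the 41 changed (29.9% of all genes), of which 3 rose (14.7% of all) and 19 fell (15.2% of all). Under olaparib 29 changed (38.3% of all), of which 4 rose (19% of all) and 25 fell (19.3% of all). Groups did not overlap for 4 genes higher with the knockdown (20.6% of all) and 20 lower (20.6% of all) in DMSO, and for 5 higher (25% of all) and 28 lower (25.3% of all) under olaparib. The median log2 change was -0.11 and -0.22 over the 41 genes, against 0.0037 and 0.0082 over all genes. These comparisons share no libraries with each other, but each of their groups, control and knockdown, also enters an olaparib comparison. The knockdown and olaparib effects are therefore not independent of each other. Scaled by library size alone, genes that rose were 64.6% of those called in DMSO in place of 49.1%, and 72.5% under olaparib in place of 49.7%, where the median of all genes moved to 0.11. The members' counts were then 4 and 15 in DMSO and 8 and 19 under olaparib. With a filter of more than 5 CPM, 2 in place of 4 rose under olaparib, since SLC2A3 and ANKRD37 were no longer tested.

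**Figure D4:**
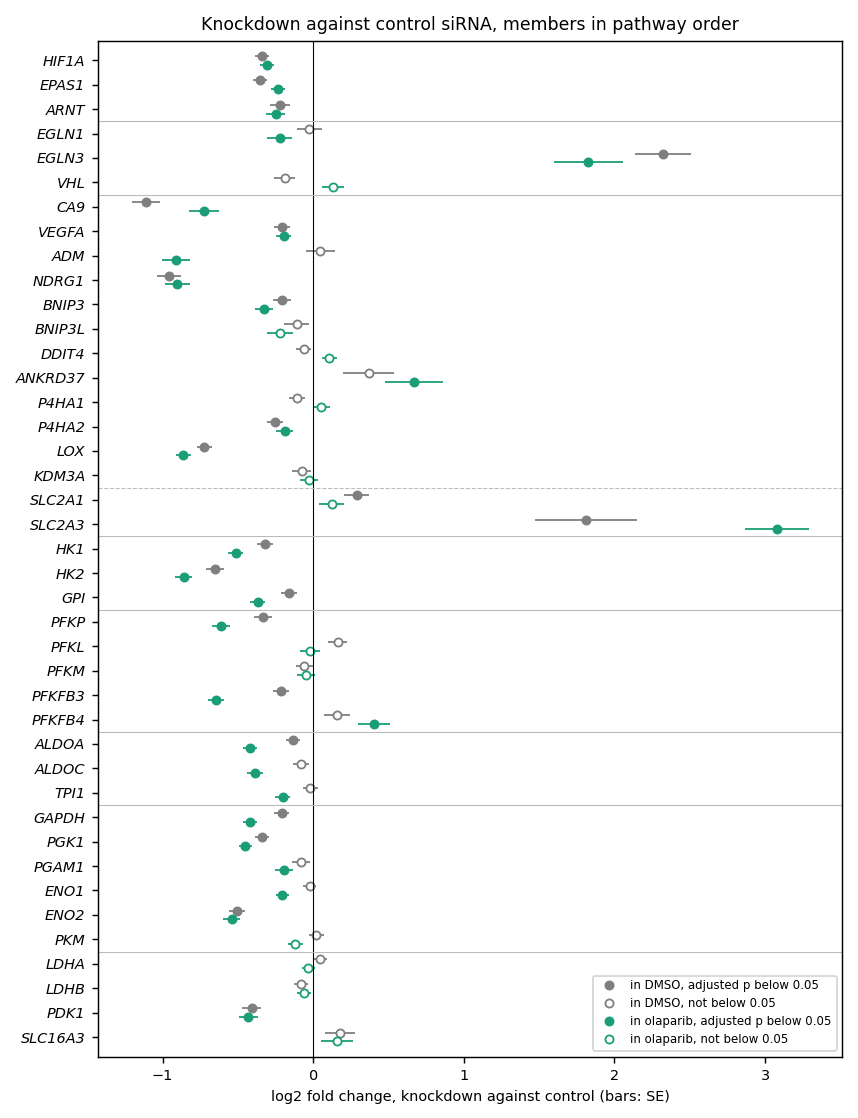
The log2 fold change with FOSL1 and JUN knockdown against control siRNA (bars: SE) for each gene in pathway order, in DMSO (grey) and under olaparib (green), filled where the adjusted p was below 0.05. EGLN3 (2.32 and 1.83) and SLC2A3 (1.81 and 3.08) lie far right, while CA9, NDRG1 and LOX are the lowest in DMSO.

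The HIF subunits, raised by olaparib, were lowered by the knockdown in both conditions. HIF1A fell, with log2 changes of -0.34 (SE 0.047, adjusted p = 1.6e-05 by edgeR) in DMSO and -0.31 (SE 0.046, adjusted p = 3.06e-05 by edgeR) under olaparib. EPAS1 fell, with log2 changes of -0.36 (SE 0.048, adjusted p = 1.09e-05 by edgeR) and -0.23 (SE 0.047, adjusted p = 0.00062 by edgeR). ARNT fell, with log2 changes of -0.22 (SE 0.066, adjusted p = 0.0162 by edgeR) and -0.25 (SE 0.064, adjusted p = 0.00448 by edgeR), a call lost in DMSO without control DMSO library 2 (log2 -0.21, adjusted p = 0.0508), without knockdown DMSO library 3 (-0.14, adjusted p = 0.0974) and with library size alone (-0.17, adjusted p = 0.059). Under olaparib library size alone gave -0.15 for ARNT (adjusted p = 0.0623). EGLN3 went the other way: every knockdown library was above every control library of its treatment, by 2.32 (SE 0.18, adjusted p = 1.29e-08 by edgeR) and 1.83 (SE 0.23, adjusted p = 3.29e-06 by edgeR). VHL was not called in DMSO, at -0.19 (SE 0.072, adjusted p = 0.0534 by edgeR), but was called as lower in 4 of 19 alternatives. Under olaparib VHL read 0.13 (SE 0.073, adjusted p = 0.168 by edgeR) without overlap, and was called as higher with library size alone (0.23, adjusted p = 0.0259). EGLN1 read -0.025 (SE 0.083, adjusted p = 0.852 by edgeR) in DMSO and fell, with a log2 change of -0.22 (SE 0.084, adjusted p = 0.0458 by edgeR) under olaparib; that call was lost in 8 of the 12 fits that left out a library (the 3 of control DMSO, the 3 of control olaparib, and knockdown olaparib 1 and 2; log2 -0.20 to -0.25, adjusted p from 0.0554 to 0.144), with library size alone (-0.12, adjusted p = 0.283) and with the 5 CPM filter (-0.21, adjusted p = 0.0536).

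Among the HIF targets, 6 of 12 fell in DMSO with the others not called, and 7 fell and 1 rose under olaparib. Over all genes 15.2% fell and 14.7% rose in DMSO, and 19.3% fell and 19% rose under olaparib. CA9, NDRG1 and LOX had the largest falls in DMSO. For CA9 the change was -1.11 (SE 0.095, adjusted p = 3.14e-08 by edgeR) in DMSO and -0.73 (SE 0.10, adjusted p = 9.75e-06 by edgeR) under olaparib, with every knockdown library at 6.90 CPM or less and every control library above 9.6 CPM. NDRG1 fell, with log2 changes of -0.96 (SE 0.081, adjusted p = 3.1e-07 by edgeR) and -0.90 (SE 0.084, adjusted p = 6.3e-07 by edgeR), and the smallest NDRG1 values of the study were in knockdown olaparib. LOX fell, with log2 changes of -0.72 (SE 0.05, adjusted p = 1.87e-09 by edgeR) and -0.86 (SE 0.05, adjusted p = 1.11e-10 by edgeR). VEGFA fell, with log2 changes of -0.21 (SE 0.051, adjusted p = 0.00404 by edgeR) and -0.19 (SE 0.05, adjusted p = 0.00466 by edgeR), the latter lost with library size alone (-0.09, adjusted p = 0.131). BNIP3 fell, with log2 changes of -0.21 (SE 0.059, adjusted p = 0.0109 by edgeR) and -0.33 (SE 0.061, adjusted p = 0.000327 by edgeR); its DMSO call was lost without control DMSO library 1 (-0.16, adjusted p = 0.0803), without knockdown DMSO library 2 (-0.17, adjusted p = 0.0588) and with library size alone (-0.16, adjusted p = 0.0549). P4HA2 fell, with log2 changes of -0.25 (SE 0.054, adjusted p = 0.00134 by edgeR) and -0.19 (SE 0.055, adjusted p = 0.01 by edgeR), the latter lost with library size alone (-0.09, adjusted p = 0.178) and without control olaparib library 2 (-0.16, adjusted p = 0.0624). ADM, whose DMSO groups overlapped (0.047 (SE 0.095, adjusted p = 0.749 by edgeR)), fell under olaparib, with a log2 change of -0.91 (SE 0.093, adjusted p = 2.37e-07 by edgeR). ANKRD37 read 0.37 (SE 0.17, adjusted p = 0.112 by edgeR) in DMSO and rose under olaparib by 0.67 (SE 0.20, adjusted p = 0.0107 by edgeR), a call lost without control olaparib library 3 (0.49, adjusted p = 0.0922). BNIP3L, DDIT4, P4HA1 and KDM3A were not called in either condition, with log2 changes from -0.22 to 0.11. Under olaparib, library size alone called DDIT4 (0.21, adjusted p = 0.00262) and P4HA1 (0.15, adjusted p = 0.034) as higher. DDIT4 was also called there without knockdown olaparib library 3 (0.16, adjusted p = 0.0182). BNIP3L under olaparib, at -0.22 (SE 0.084, adjusted p = 0.052 by edgeR), was called in several alternatives (adjusted p from 0.00837 to 0.0496), and in DMSO without knockdown DMSO library 3 (-0.22, adjusted p = 0.0232).

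In glycolysis the knockdown lowered 10 of 23 genes and raised 2 in DMSO, against 15.2% and 14.7% of all genes. Under olaparib it lowered 14 and raised 2, against 19.3% and 19% of all genes. SLC2A3 rose by 1.81 (SE 0.34, adjusted p = 0.000448 by edgeR) in DMSO, from the few counts given above. Under olaparib it was 3.08 higher on the log2 scale, which describes the group that took it past the filter and leaves 1 other glycolytic gene that rose there, PFKFB4. SLC2A1 rose in DMSO by 0.29 (SE 0.081, adjusted p = 0.0105 by edgeR), a call lost without control DMSO library 2 (0.21, adjusted p = 0.0789), and read 0.12 (SE 0.085, adjusted p = 0.269 by edgeR) under olaparib. The hexokinases and GPI fell in both conditions, HK2 with log2 changes of -0.65 (SE 0.057, adjusted p = 4.67e-08 by edgeR) and -0.86 (SE 0.056, adjusted p = 5.89e-10 by edgeR). HK1 fell, with log2 changes of -0.32 (SE 0.053, adjusted p = 0.000102 by edgeR) and -0.52 (SE 0.053, adjusted p = 2.56e-07 by edgeR). Of the phosphofructokinase genes, PFKP fell, with log2 changes of -0.34 (SE 0.06, adjusted p = 0.000286 by edgeR) and -0.61 (SE 0.06, adjusted p = 1.93e-07 by edgeR), and PFKFB3, at -0.21 (SE 0.054, adjusted p = 0.00516 by edgeR) and -0.65 (SE 0.054, adjusted p = 1.56e-08 by edgeR). PFKL read 0.16 (SE 0.063, adjusted p = 0.0596 by edgeR) in DMSO, with knockdown libraries above control libraries without overlap. It was called as higher there in 6 of 19 alternatives. Under olaparib PFKL read -0.021 (SE 0.063, adjusted p = 0.817 by edgeR). PFKFB4 read 0.16 (SE 0.086, adjusted p = 0.19 by edgeR) in DMSO and rose under olaparib by 0.40 (SE 0.11, adjusted p = 0.00556 by edgeR), where its 3 knockdown libraries at 14.5 to 14.9 CPM were above the 3 control libraries at 9.91 to 12.9 CPM.

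Among the later steps, PGK1 fell with the knockdown, with log2 changes of -0.34 (SE 0.045, adjusted p = 8.14e-06 by edgeR) in DMSO and -0.45 (SE 0.045, adjusted p = 1.86e-07 by edgeR) under olaparib. GAPDH fell, with log2 changes of -0.21 (SE 0.048, adjusted p = 0.00227 by edgeR) and -0.42 (SE 0.048, adjusted p = 1e-06 by edgeR). ENO2 fell, with log2 changes of -0.51 (SE 0.055, adjusted p = 8.01e-07 by edgeR) and -0.54 (SE 0.056, adjusted p = 2.81e-07 by edgeR), and PDK1, at -0.41 (SE 0.063, adjusted p = 5.06e-05 by edgeR) and -0.43 (SE 0.065, adjusted p = 3.34e-05 by edgeR). ALDOC, TPI1, PGAM1 and ENO1 were not called in DMSO, with log2 values from -0.08 to -0.02, and all 4 fell under olaparib, with values from -0.38 to -0.19. Of these, PGAM1 lost its call without control olaparib library 1 (-0.18, adjusted p = 0.0578) or 2 (-0.18, adjusted p = 0.0613) and with library size alone (-0.09, adjusted p = 0.188), and TPI1 with library size alone (-0.10, adjusted p = 0.0798). ALDOA fell, with log2 changes of -0.14 (SE 0.046, adjusted p = 0.031 by edgeR) and -0.42 (SE 0.046, adjusted p = 6.67e-07 by edgeR). GPI fell, with log2 changes of -0.16 (SE 0.051, adjusted p = 0.0218 by edgeR) and -0.37 (SE 0.051, adjusted p = 1.29e-05 by edgeR). In DMSO both calls were lost with library size alone (ALDOA -0.08, adjusted p = 0.140; GPI -0.11, adjusted p = 0.088), in a fit of those 2 groups (ALDOA -0.13, adjusted p = 0.0785; GPI -0.16, adjusted p = 0.0501) and without control DMSO library 1 or 3 or knockdown DMSO library 3, that of ALDOA also without knockdown DMSO library 1 (ALDOA -0.11 to -0.13, adjusted p from 0.0655 to 0.141; GPI -0.12 to -0.14, adjusted p from 0.0843 to 0.0992). LDHA, LDHB, PKM and SLC16A3 were not called in either condition. PKM under olaparib read -0.12 (SE 0.05, adjusted p = 0.0648 by edgeR) with groups that did not overlap, and was called in 4 alternatives: without a filter on low counts (adjusted p = 0.0303), in a fit of those 2 groups (adjusted p = 0.013), without control DMSO library 2 (adjusted p = 0.0273) and without knockdown DMSO library 3 (adjusted p = 0.0461). SLC16A3 read 0.18 (SE 0.10, adjusted p = 0.21 by edgeR) and 0.16 (SE 0.11, adjusted p = 0.264 by edgeR), the latter called without knockdown olaparib library 3 (0.26, adjusted p = 0.0401).

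Between comparisons that share no library, 22 genes fell with olaparib in both arms, out of 23 that fell in control and 29 in knockdown cells, and 7 rose in both, out of 10 and 8. Over all genes 15.2% fell and 16.3% rose in both arms, so the 7 of 41 that rose are near that share. With the knockdown, 19 genes fell in both conditions, out of 19 in DMSO and 25 under olaparib, against 9.96% of all genes. PFKM and LDHB were not called in any comparison of 2 groups, and LDHB was below the threshold in DMSO only without knockdown DMSO library 1 (-0.12, adjusted p = 0.0467).

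The difference between the olaparib effects in the knockdown and control arms was tested as an interaction. It was called by edgeR for 4 of the 41 genes (5.69% of all genes), all more negative in knockdown cells (2.85% of all), and for 0 in the other direction (2.84% of all). At an unadjusted p below 0.05 by edgeR, 4 genes were higher and 11 lower. The share of all genes at that looser threshold was not counted, so these counts cannot be read as a trait of the set. DESeq2 called 0 members higher and 5 lower. Over all genes it called 791 of the 10238 that it gave an adjusted p, and 47.8% of those called were higher. ADM had the largest called difference, -0.96 (SE 0.13, adjusted p = 0.000473 by edgeR): it rose with olaparib in control cells and fell in knockdown cells. PFKFB3 also changed direction, with a difference of -0.43 (SE 0.076, adjusted p = 0.00304 by edgeR). ALDOA (-0.28 (SE 0.065, adjusted p = 0.0153 by edgeR)) had a called fall in knockdown cells alone. ALDOC (-0.30 (SE 0.075, adjusted p = 0.0221 by edgeR)) fell in both arms, and further in knockdown cells. SLC2A3 had an uncalled difference of 1.26 on few counts. That value is a description, because the contrast holds knockdown olaparib, the group that took the gene past the filter. SLC2A3 stays among the 4 genes that were higher at the unadjusted threshold. The differences for EPAS1, 0.12 (SE 0.067, adjusted p = 0.285 by edgeR), and HIF1A, 0.029 (SE 0.066, adjusted p = 0.83 by edgeR), were not called, nor were those of NDRG1, 0.056 (SE 0.12, adjusted p = 0.809 by edgeR), and SLC16A3, -0.019 (SE 0.14, adjusted p = 0.958 by edgeR). Over the 41 genes, 36 had the same sign of olaparib effect in both arms and 26 were lower in the knockdown arm, 19 of them among the 23 glycolytic genes. Shares of all genes were not taken for these sign counts. The median difference was -0.11 over the 41 genes and -0.0039 over all genes. It was -0.16 for the glycolytic genes and 0.0385 for the HIF pathway genes. The calls of ADM and PFKFB3 held in each alternative run, whereas ALDOC lost its call without control DMSO library 2 (log2 -0.25, adjusted p = 0.0675), control olaparib library 1 (-0.32, adjusted p = 0.0519) or 2 (-0.28, adjusted p = 0.0779), or knockdown olaparib library 2 (-0.31, adjusted p = 0.0548), and ALDOA without control olaparib library 2 (-0.26, adjusted p = 0.0561). The 689 genes called in all became 435 without control DMSO library 1, 349 without 2, 292 without control olaparib library 1, 321 without 2, 423 without knockdown DMSO library 2, 343 without knockdown olaparib library 2 and 1130 without knockdown olaparib library 1. With library size alone, 69.6% of called genes were higher in place of 49.9%, and the same number of members, 4, was called.

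**Figure D5:**
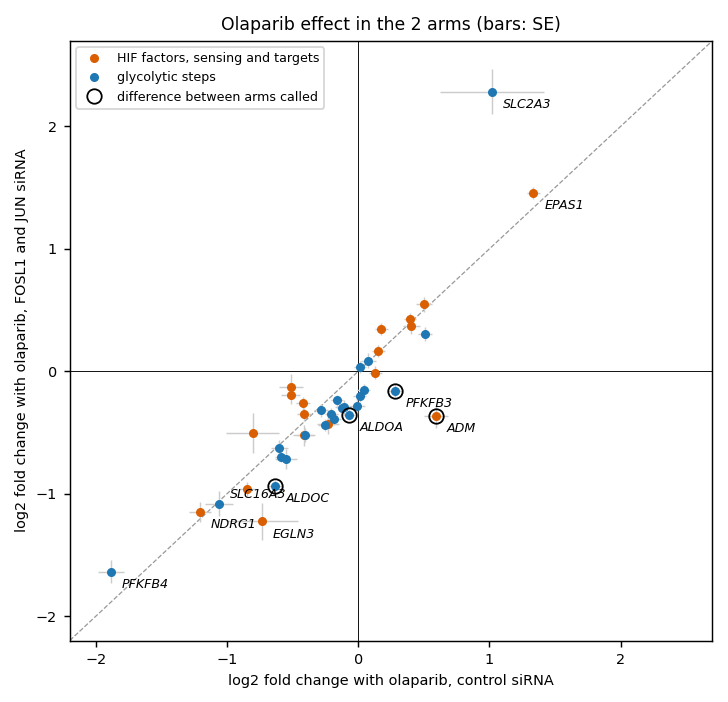
The log2 fold change with olaparib in control siRNA cells (x axis) against that in FOSL1 and JUN knockdown cells (y axis) for the 41 genes, bars being SE and the dashed line equal effects. Rings mark ADM, PFKFB3, ALDOA and ALDOC, the 4 genes whose difference between arms was called; ADM and PFKFB3 lie right of and below 0.

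Knockdown and olaparib together, set against control DMSO, left most of the pathway lower. Of the 41 genes 34 changed (47.2% of all genes), of which 5 rose (23.8% of all) and 29 fell (23.4% of all), with a median log2 change of -0.41 against -0.0064 over all genes. The groups did not overlap for 6 genes higher (27.8% of all) and 29 lower (27.1% of all). This comparison shares its libraries with those above. EPAS1 was still higher, 1.10 (SE 0.048, adjusted p = 1.27e-12 by edgeR), whereas HIF1A read 0.089 (SE 0.046, adjusted p = 0.124 by edgeR) and its groups overlapped. NDRG1 was at 23.2% of its control DMSO level, -2.11 (SE 0.085, adjusted p = 4.21e-11 by edgeR), the largest fall of the set. Of the glycolytic genes 19 of 23 fell, among them PGK1 at a log2 change of -1.04 (SE 0.045, adjusted p = 1.32e-12 by edgeR), PDK1 at -1.03 (SE 0.064, adjusted p = 2.11e-10 by edgeR) and ALDOC at -1.02 (SE 0.053, adjusted p = 2.05e-11 by edgeR). SLC16A3 fell, with a log2 change of -0.91 (SE 0.10, adjusted p = 8.8e-06 by edgeR), and PFKFB4, at -1.48 (SE 0.094, adjusted p = 3.19e-10 by edgeR). No other glycolytic gene than SLC2A3 was called as higher, and that call compares the group that took it past the filter with 3 to 5 counts a library, so its log2 difference of 4.10 is a description. EGLN3 rose among the HIF pathway genes, 1.09 (SE 0.21, adjusted p = 0.000265 by edgeR). ADM fell, with a log2 change of -0.32 (SE 0.10, adjusted p = 0.0109 by edgeR), a call lost without control DMSO library 3 (-0.28, adjusted p = 0.0514).

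Other genes of the same pathways gave a wider view of the olaparib effect. Of 26 further HIF targets, all tested, 3 rose and 16 fell in control cells and 3 rose and 15 fell in knockdown cells, with medians of -0.29 and -0.285. Over all genes 23.6% rose and 23.2% fell in control cells, and 24.1% rose and 23.9% fell in knockdown cells. MIR210HG, the host transcript of a hypoxia-induced microRNA, is counted among those that fell, but it passed the filter through the DMSO groups alone. Its levels are a description, with means of 1.11 CPM in control DMSO, 0.169 in control olaparib, 1.20 in knockdown DMSO and 0.285 in knockdown olaparib. PPFIA4 fell, with log2 changes of -1.40 (SE 0.22, adjusted p = 8.43e-05 by edgeR) and -1.55 (SE 0.20, adjusted p = 1.27e-05 by edgeR). With the knockdown, 2 rose and 10 fell in DMSO (14.7% and 15.2% of all genes) and 4 rose and 10 fell under olaparib (19% and 19.3% of all), among them BHLHE41, a transcriptional repressor (-1.03 (SE 0.20, adjusted p = 0.000559 by edgeR) and -1.17 (SE 0.19, adjusted p = 5.9e-05 by edgeR)), and CA12, a cell-surface carbonic anhydrase (-0.93 (SE 0.058, adjusted p = 4.25e-10 by edgeR) and -0.93 (SE 0.058, adjusted p = 3.06e-10 by edgeR)). Of 10 further HIF regulators tested, 1 rose and 4 fell with olaparib in control cells, and 3 were called in knockdown cells, where all 3 fell. These shares, 10% and 40% in control cells and 30% that fell in knockdown cells, rest on few genes.

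Genes of neighbouring steps of glucose use gave mixed counts. Of 13 genes of pyruvate dehydrogenase and mitochondrial pyruvate entry, 5 rose and 4 fell in control cells and 4 rose and 1 fell in knockdown cells. The shares were 38.5% and 30.8% in control cells and 30.8% and 7.69% in knockdown cells, against 23.2% to 24.1% of all genes in either direction. Among them PDK4, a pyruvate dehydrogenase kinase like PDK1, rose where PDK1 fell: 1.57 (SE 0.20, adjusted p = 3.82e-06 by edgeR) and 0.60 (SE 0.14, adjusted p = 0.0017 by edgeR), from means of 1.20 to 3.58 CPM in control cells and 3.62 to 5.70 CPM in knockdown cells. PDK3, a more abundant kinase of this kind, was lower with olaparib in both arms, as PDK1 was. Its means were 77.09 and 53.01 CPM in control DMSO and control olaparib, and 99.2 and 68.37 CPM in the knockdown groups. PDK2 had means of 15.54 and 17.68 CPM in control cells and 17.09 and 15.68 CPM in knockdown cells. Of 12 other glycolytic isoforms and side-step genes tested, 2 rose and 2 fell in control cells and 3 rose and 3 fell in knockdown cells, or 16.7% each and 25% each, the latter close to the shares of all genes. TXNIP, an arrestin that restrains glucose uptake, rose by 2.52 (SE 0.086, adjusted p = 7.06e-14 by edgeR) in control cells and 0.79 (SE 0.079, adjusted p = 1.71e-07 by edgeR) in knockdown cells, with an interaction of -1.73 (SE 0.12, adjusted p = 1.14e-07 by edgeR).

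The authors' deposited table of comparisons gave the same calls as these fits for 41 of the 41 genes in 4 of the 6 comparisons and for 40 in the other two, with log2 changes within 0.011.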

How the data were processed

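mRNA was measured in 12 libraries of BT549 cells, grouped from the sample titles. Per the submitters' processing notes, bcl2fastq 2.20.0.422 wrote the reads. In the sources used here the aligner, counter, genome build and strand setting are not given. The authors deposited whole-number counts per gene with a gene length, and, per the file headers, a table of their comparisons with log2 fold changes and FDR values. Rows with no symbol, 51 in all holding 0.00223% to 0.00311% of the counts, were left out of library sizes and tests. Genes with more than 1 CPM in at least 3 libraries were fitted in edgeR 4.0.16 (R 4.3.3, TMM, robust quasi-likelihood, 4 groups in 1 model), with contrasts for 6 comparisons and Benjamini-Hochberg adjustment over 12118 genes. The procedure was run on simulated data in which a small share of genes changed, in a single comparison. That run does not measure error rates where as many as 48% of genes are called, as with olaparib in knockdown cells. CPM is on TMM-scaled library sizes, except in the filter and for FOSL1, JUN and the receptor and lineage markers, where it is on library size alone. RPKM uses TMM-scaled library sizes and the deposited length. With 3 libraries a group the precision rests on 8 residual degrees of freedom. The genes and lists were chosen with earlier results of these data known. Genes got values in every library if called with a log2 change of at least 0.75 in an olaparib comparison within an arm or a knockdown comparison within a condition, or 0.5 in the interaction, plus HIF1A, EPAS1, ARNT, GAPDH, PKM, LDHA, SLC2A1 and, for the pathway order, PGK1 and PDK1. In the other lists at most 3 genes were named. Alternatives were other size factors, other filters, DESeq2 1.42.0, fits of 2 groups, a replicate block and leaving out each library.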

Additional observations from a re-analysis of the deposited data

Results flagged for a closer look

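For 4 genes the olaparib effect differed between the knockdown arm and the control arm by the interaction test of edgeR over 12118 genes. ADM had a difference of -0.96 in log2 change (adjusted p = 0.000473), being higher with olaparib in 3 of 3 control libraries and lower in 3 of 3 knockdown libraries than the DMSO libraries of the same arm. PFKFB3 had a difference of -0.43 (adjusted p = 0.00304), with the same change of direction. ALDOA differed by -0.28 (adjusted p = 0.0153), with a called fall in knockdown cells alone. ALDOC differed by -0.30 (adjusted p = 0.0221), with a larger fall in knockdown cells. The ALDOA and ALDOC calls were each lost in some fits that left out a library, as given above. No explanation was tested for these differences.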

How the results depend on the processing

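No member changed direction in a call under any alternative run, and size factors by DESeq2's method changed no call of any member. With library size alone, 8 members in place of 4 rose with the knockdown under olaparib, and with a filter of more than 5 CPM 2 rose. Without a filter, 1 member in place of 0 had a higher olaparib effect in the knockdown arm. Leaving out 1 library at a time, the interaction gave 292 to 1130 genes in place of 689, with 2 to 6 members lower in place of 4 and 0 to 1 higher. The causes were not tested. Over all leave-one-out fits 2861 of 2952 member results kept their call or stayed uncalled, 67 lost a call and 24 gained one. The total includes results that were never called and fits that left out a library of a group not compared. It therefore does not measure how stable the calls are. The replicate numbers of the titles did not pair the libraries (correlations of same-numbered deviations from -0.356 to 0.307). With a replicate block the member counts were 10 and 23, 8 and 29, 3 and 19, 4 and 26 for the comparisons of 2 groups in the order given, 0 and 4 for the interaction, and all-gene interaction calls were 609; 1 call was gained, BNIP3L under olaparib (-0.22, adjusted p = 0.0371). DESeq2 and a fit of the 2 groups compared gave the same extra call. Calls below 10 CPM, as for SLC2A3, EGLN3 and ANKRD37, are limited by counts as low as 3 a library.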
